A study of Drosophila melanogaster with 2 samples.

Results

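The regions described here are exonic ChIP-seq peaks outside promoters: peaks of the fly transcription factor NFAT whose summit, the base of highest enrichment in the peak, lay inside an annotated exon and more than 500 bp from the nearest start site of a protein-coding gene. They numbered 309 of the 4899 peaks on chromosome arms (6.31%, Wilson 95% interval 5.66 to 7.02%) and 309 of the 2146 arm peaks outside promoters (14.4%, interval 13.0 to 15.9%). The assay, ChIP-seq, sequences the DNA that comes down with a protein, here NFAT in Drosophila melanogaster embryos of 0 to 24 h taken whole. The flies were of the strain NFAT-GFP, which carries an insertion targeting NFAT and makes an NFAT-eGFP fusion, and the antibody recognised GFP. There were 2 samples, biological replicates 1 and 2 of this 1 group, and no other genotype, treatment or control was analysed here, so no comparison between conditions was possible. Whole embryos pool all tissues and stages, so the cells behind a peak cannot be told apart.

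NFAT proteins are Rel-family transcription factors. In vertebrates the calcium-dependent NFATs are moved into the nucleus once calcineurin removes their phosphates, and they bind a short GGAAA core. The single fly NFAT resembles the vertebrate member NFAT5, which responds to osmotic stress. A peak inside an exon lies in sequence that is also under selection as code, as an untranslated region (UTR) or as non-coding RNA, and exons of long non-coding RNA (lncRNA) genes often lie close to those genes' own start sites. ChIP-seq carries no strand, so a peak over overlapping genes belongs to none of them in particular, and 8 of the 309 summits lay in exons of more than 1 gene.

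Short sequences from the summit windows are shown because 3 motifs carry the sequence results below. Each window reached 50 bp to either side of the summit, both strands were searched, and capitals mark the motif. Of the 10 members with the core AGNTGGCGC, which resembles the site of the insulator protein CTCF, 7 are shown by signal order. Each is printed as the sequence of the strand that holds the core (dm6, Release 6 genome from RefSeq). Those in otp, Mef2 and Cam, with signals of 690, 458 and 133, are not printed. The 7 shown lie in klar at chr3L:506256-506284 on the plus strand, Pde1c at chr2L:11816558-11816586 on the minus strand, ush at chr2L:490258-490286 on the minus strand, Hph at chr3R:5257874-5257902 on the minus strand, CG9166 at chr3L:1352351-1352379 on the minus strand, Itpr at chr3R:5527717-5527745 on the minus strand and Hr4 at chrX:2006000-2006028 on the minus strand.
klar, coding: cccagacccaAGGTGGCGCtgctgtgcag
Pde1c, coding: cggagccggcAGATGGCGCtgcggcctaa
ush, 5' UTR: ttgggccactAGTTGGCGCtttcacaccg
Hph, coding: gcggtggagcAGTTGGCGCcggcgccgct
CG9166, 3' UTR: tttcagaaatAGGTGGCGCtagcgtcgct
Itpr, 5' UTR: ggctgccgccAGGTGGCGCaacaatgggc
Hr4, 3' UTR: ctctaaatacAGGTGGCGCcactgaggaa

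Of the motifs searched, the core CACTG lay at the most summits, and 5 strong members show it. They lie in lncRNA:CR44619 at chrX:12752385-12752413, ph-p at chrX:2137817-2137845, by at chr3R:9528644-9528672, lncRNA:CR44363 at chr3L:11405953-11405981 and Tctp at chr3R:11211763-11211791, each printed from the minus strand.
lncRNA:CR44619, exon of a lncRNA: attattattgtgCACTGttcagggatgtg
ph-p, 5' UTR: aaaaaattgaccCACTGtactcttggttc
by, 3' UTR: tattggaaacgcCACTGattcatatttgt
lncRNA:CR44363, exon of a lncRNA: gtaacatgtaacCACTGtgcaccgtcatc
Tctp, 3' UTR: ctaacgagtgtcCACTGtgcgcatctctc

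The NFAT core GGAAA is shown for 3 strong members, in lncRNA:Vinr at chrX:12751408-12751436 on the plus strand, CG7872 at chrX:15579794-15579822 on the minus strand and CG10357 at chr3L:3616486-3616514 on the plus strand. The matches lay 28, 3 and 30 bp from their summits.
lncRNA:Vinr, exon of a lncRNA: ataaacattcatGGAAAatcaaattaaaa
CG7872, 3' UTR: tcaagttagttaGGAAAcacgcgaatgtg
CG10357, coding: gtactattatttGGAAActaatggagcgc

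The 309 summits fell unevenly over the kinds of exon. Coding sequence held 148 (47.9%, interval 42.4 to 53.5%), exons of genes that make no protein held 84 (27.2%, interval 22.5 to 32.4%), 3' UTRs held 47 (15.2%, interval 11.6 to 19.6%) and 5' UTRs held 30 (9.71%, interval 6.89 to 13.5%). A base that was 5' UTR in any transcript was counted there, then as coding, then as 3' UTR. The 84 summits in non-coding genes lay in 72 lncRNA, 3 antisense RNA and 5 small nuclear RNA (snRNA) exons and in 1 exon each of a small nucleolar RNA, a transfer RNA, a pseudogene and the RNA of RNase MRP. All intervals here cover counting error only, and the peaks share the same 2 libraries, so they are not independent replicates. The depth of sequencing is unknown, because the peak lists give no read totals.

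Set against the amount of sequence of each kind, non-coding exons and 5' UTRs were the dense classes. Summits outside promoters numbered 38.0 per Mb (Poisson 95% interval 30.3 to 47.1) in non-coding exons, 28.3 per Mb (interval 19.1 to 40.4) in 5' UTRs, 7.92 per Mb (interval 6.69 to 9.30) in coding sequence and 7.76 per Mb (interval 5.70 to 10.3) in 3' UTRs. Introns outside promoters had 23.8 per Mb and intergenic sequence 13.7 per Mb. The interval for non-coding exons lay above that for introns, which was 22.5 to 25.1. The promoter limit used protein-coding starts only, so non-coding exons include sequence near the starts of non-coding genes. Of the 84 summits there, 53 lay within 500 bp of such a start, as did 48.9% of that sequence. The density away from those starts was not computed. The interval for 5' UTRs contained that for introns, so those 2 were not resolved. The intervals for coding sequence and 3' UTRs lay below that for intergenic sequence, which was 12.5 to 14.9. Between coding sequence and 3' UTRs the intervals overlapped almost wholly. The density was similar on the large arms, from 9.52 per Mb on X to 12.4 per Mb on 2R with overlapping intervals. Arms 4 and Y held no member, over 0.399 and 0.131 Mb of such exon.

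**Figure D1:**
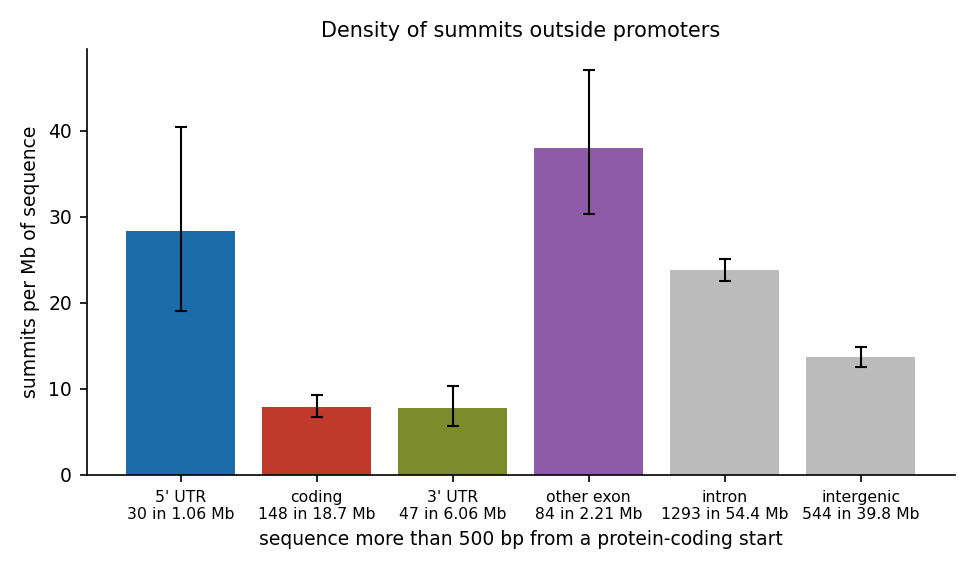
Summits per Mb of sequence more than 500 bp from a protein-coding start (vertical axis) for the 4 kinds of exon and for introns and intergenic sequence; bars are counts over sequence length, and error bars are Poisson 95% intervals. Non-coding exons stood at 38.0 per Mb, coding sequence at 7.92 and 3' UTRs at 7.76.

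Most members were weak peaks. The median signal, the enrichment value that the authors' caller gave each peak in units that the labels and files do not define, was 68.2 over the 309 members (order-statistic 95% interval 66.0 to 70.2) and 91.8 over all arm peaks. By class it was 88.6 in 5' UTRs, 78.2 in non-coding exons, 71.4 in 3' UTRs and 62.3 in coding sequence (interval 60.5 to 64.5). The −log10 q-value in the list, which is higher for surer peaks, was also low. Its median was 0.645 over members and 0.436 over coding members, against 1.60 over all arm peaks. Signal is used here only to rank and describe peaks within 1 list. Of the 1225 arm peaks in the weakest quartile of signal, 158 were members (12.9%, interval 11.1 to 14.9%), against 37 of the 1225 in the strongest quartile (3.02%, interval 2.20 to 4.14%). The strongest 100 arm peaks held 5 members, and the strongest 25 held none.

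**Figure D2:**
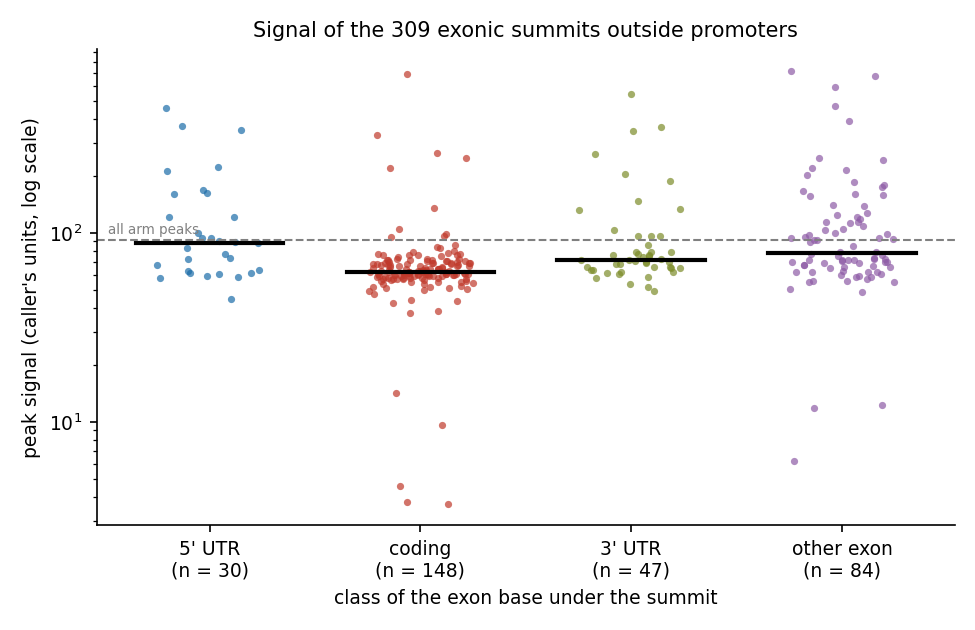
Peak signal (vertical log axis, caller's units) of each of the 309 members, by class of exon ("other exon" is an exon of a non-coding gene); each point is 1 peak, black lines are class medians and the dashed line is the median of all arm peaks at 91.8. The coding class clusters around 62.3, and each class has a few peaks above 200.

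The strongest group of members lay in exons of lncRNAs on X. At lncRNA:Vinr, a lncRNA named for its induction by virus, and the overlapping lncRNA:CR44619, 4 member summits fell within 3533 bp between positions 12750972 and 12754505. The highest, in the CR44619 exon at 12752365, had a signal of 718, and the replicates' own thresholded peaks there had signals of 291 and 435. A summit in the only exon of Vinr at 12751450 had a signal of 673, with 285 in replicate 1 and 404 in replicate 2. The other 2 summits of the group had signals of 389 and 185. The 2 summits in Vinr share 1 deposited interval of 686 bp and overlap the same replicate peaks, and so are not separate measurements. All 4 were in the conservative list, a stricter version of the joint list.

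Other strong summits in lncRNA exons were single. That in lncRNA:CR46035 on 3R at 17704417 had a signal of 590, with 226 and 371 in replicates 1 and 2. That in lncRNA:CR31840 on 2L at 14024081 had a signal of 466, with 178 and 294, and lay 18 bp from the annotated start of that gene. No function is given here for these 2 genes.

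**Figure D3:**
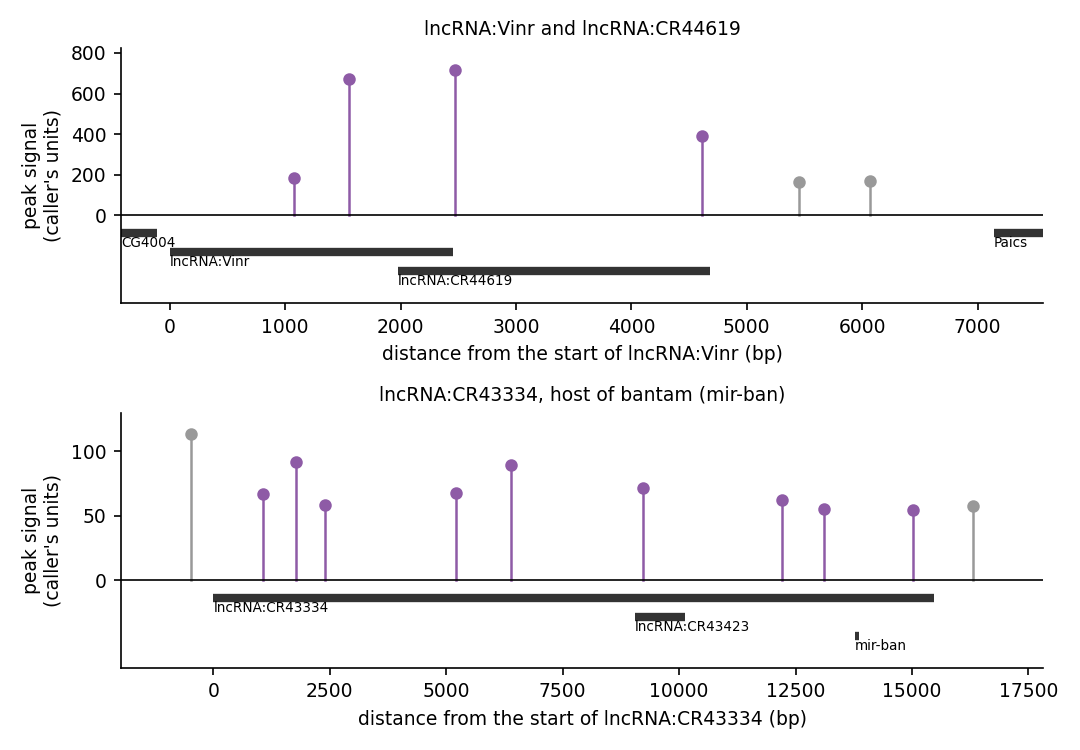
Peak signal (vertical axis, caller's units) against distance in bp from the start of the named lncRNA (horizontal axis) at 2 loci; purple stems are members, gray stems are other peaks of the list and dark bars are genes. The 4 members over Vinr and CR44619 reach 718, and the 9 members over the bantam host CR43334 lie between 54.6 and 91.9.

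In 5' UTRs, the 4 strongest members lay in Mef2, ph-p, baz and cic. Mef2, which encodes a MADS-box factor needed for muscle formation, had a summit at 2R position 9942980 with a signal of 458, and 176 and 283 in replicates 1 and 2. In ph-p, which encodes a subunit of a Polycomb repressive complex, a summit at X position 2137834 had a signal of 366, with 131 and 234. It lay 537 bp from the ph-p start site, close to the promoter limit. The polarity gene baz, the fly Par-3, had 3 members within 2785 bp of a single 5' UTR exon of 3624 bp, with signals of 349, 121 and 93.5. Its strongest summit had 135 and 214 in the replicates, and the weaker 2 were past the threshold in replicate 2 alone, at 83.0 and 58.1. In cic, which encodes the HMG-box repressor Capicua, the signal was 222, with 98.6 and 123. In 17 of the 30 summits in 5' UTRs, the same base was intron in another transcript of the gene, so the exonic label depends on the transcript.

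In coding sequence, the strongest member was an exception among weak peaks. The summit in otp, which encodes a homeobox factor, lay in the last exon at 2R position 20884599 and had a signal of 690, with 273 and 411 in replicates 1 and 2. The next were CG10357 with 328 (152 and 183 in the replicates), klar with 264 (132 and 140) and Pde1c with 248 (111 and 142). klar encodes a KASH-domain protein of the nuclear envelope and Pde1c a calmodulin-dependent cyclic nucleotide phosphodiesterase. NFAT itself held a coding summit at X position 13625546, 801 bp from its start site, with a signal of 135 and replicate values of 42.9 and 94.7. NFAT is the gene that the insertion of this strain targets, and whether the insertion affects this peak was not tested. The middle 50% of the 148 coding members lay between 57.7 and 69.5, so these 5 were far above the usual coding peak.

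In 3' UTRs, the strongest member lay in APC7, which encodes a subunit of the anaphase-promoting complex. Its summit at X position 6599483 had a signal of 541, with 214 and 325 in replicates 1 and 2, and lay 579 bp from the start of the neighbour pigs. CG7872 followed with 361 (159 and 197), by, which encodes the fly tensin, with 344 (155 and 195), and aqz with 261 (78.9 and 180). The calmodulin gene Cam had a signal of 133, and passed the threshold in replicate 2 with 81.2 but not in replicate 1, where its ranked peak had 58.9.

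Members overlapped the replicates' own lists less often than other peaks did. Of the 309 members, 55 (17.8%, interval 13.9 to 22.5%) overlapped by at least 1 bp a thresholded peak of both replicates, against a background of 39.8% of all arm peaks. Other arm peaks did so in 1893 of 4590 cases (41.2%), a difference of -23.4 percentage points (Newcombe 95% interval -27.6 to -18.6). Replicate 1 held 76 of the members (24.6%, background 44.2%) and replicate 2 held 135 (43.7%, background 73.3%), and the replicate 2 list was longer, with 3994 arm peaks against 2236. The conservative list held 169 (54.7%, background 74.7%). In neither replicate list were 153 members (49.5%, background 22.3%), of which 146 had a ranked peak that missed the threshold in both replicates. Over all members, a ranked peak lay under 291 in replicate 1 (94.2%, background 94.7%) and 306 in replicate 2 (99.0%, background 99.7%). Members were thus close to other peaks in having a ranked peak, but their ranked peaks were weaker. The median ranked signal of members was 30.7 in replicate 1 and 39.9 in replicate 2, against 38.9 and 59.6 for other arm peaks.

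Within quartiles of signal the difference was not resolved. In the strongest quartile all 37 members overlapped both replicates (interval 90.6 to 100%), as did 1128 of 1188 other peaks (94.9%). In the weakest quartile 0 of 158 members did (upper bound 2.37%), and 20 of 1067 others (1.87%). The 2 quartiles between them gave 16 of 36 members (44.4%) beside 54.5% of others, and 2 of 78 (2.56%) beside 8.46%. In each of the 4 quartiles the 95% interval of the difference included 0, for both replicates and for the conservative list. Over the 54 pairs of replicate peaks behind the members in both lists, the signals ranked alike (Spearman rho 0.874, across peaks of the same 2 libraries). Other peaks in both lists gave 0.804 over 1869 pairs. The summits of the replicates lay a median of 14 bp apart for members and for other peaks.

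Coding members were the least reproduced class. Only 7 of 148 (4.73%, interval 2.31 to 9.44%) overlapped thresholded peaks of both replicates, against 48 of 161 members outside coding sequence (29.8%), a difference of -25.1 points (interval -32.9 to -17.0). In neither replicate were 104 of the 148 (70.3%, interval 62.5 to 77.0%), against 30.4% outside coding sequence. Coding members were also weaker: 104 of the 148 were in the weakest quartile of arm peaks, beside 54 of the 161 outside coding sequence. In that quartile 0 of 158 members overlapped both replicates. The class difference at equal signal was not tested. Both replicates held 36.7% of summits in 5' UTRs, 34.5% in non-coding exons and 17.0% in 3' UTRs. The conservative list kept 62 coding members (41.9%) and 60 in non-coding exons (71.4%), which left densities of 3.32 and 27.2 per Mb.

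**Figure D4:**
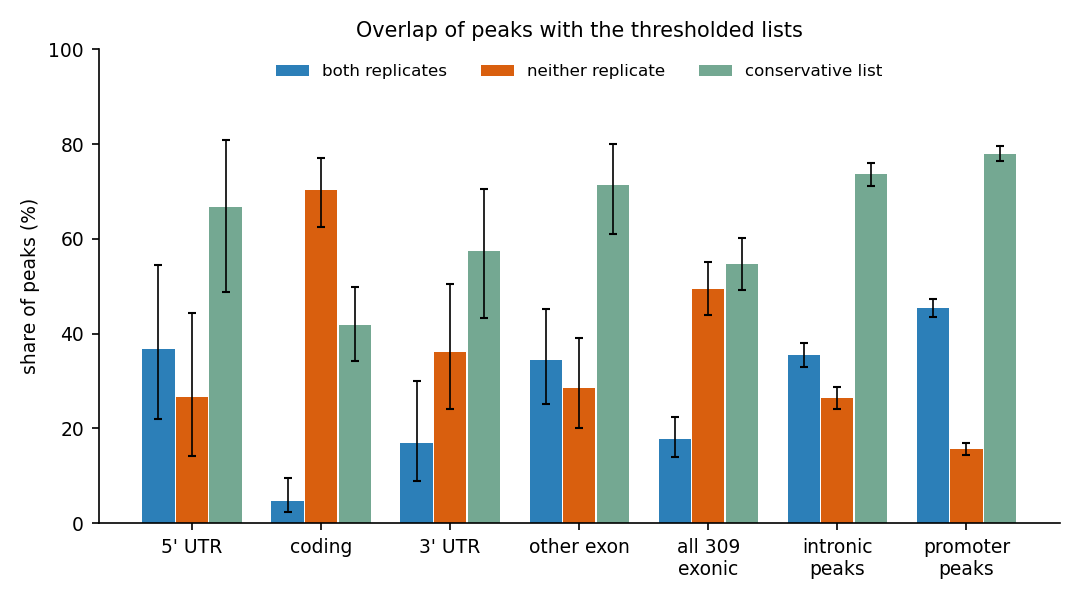
Share of peaks in percent (vertical axis) that overlap thresholded peaks of both replicates, of neither replicate, or the conservative list, for the 4 classes, all 309 members, intronic and promoter peaks; error bars are Wilson 95% intervals. Coding members stand at 4.73% in both and 70.3% in neither.

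The base composition at coding summits also stood apart. The median GC content within 50 bp of the summit was 58.4% for coding members, with quartiles of 55.4 and 63.4%, against 45.0% in a window 400 bp to one side. Such a flank can lie outside the exon, because coding summits lay a median of 194 bp from the nearer exon edge. Coding sequence outside promoters, cut into consecutive windows of the same length, had a median of 53.5%, with quartiles of 47.5 and 58.4%, so the typical coding summit lay at the upper quartile of coding sequence. GC was higher at the summit than in its own flank for 125 of 148 coding members (84.5%), 34 of 47 in 3' UTRs (72.3%), 49 of 84 in non-coding exons (58.3%) and 19 of 30 in 5' UTRs (63.3%), beside 2401 of all 4899 arm peaks (49.0%). Summits in 3' UTRs had a median of 44.6% against 34.7% over 3' UTR sequence.

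GC content was lower at stronger peaks outside coding sequence, and not within it. Members outside coding sequence had a median of 50.5% in the weakest quartile of arm peaks (n = 54) and 43.6% above it (n = 107). The other arm peaks had 47.5% (n = 1067) and 41.6% (n = 3523) in the same bands. Coding members had 57.4% in the weakest quartile and 60.4% above it (n = 44). Among all hexamers, read on both strands and picked after seeing the data, CGCCCA had the largest excess at the summit over the flank. It lay in 46 summit windows (14.9%) against 9 flanks (2.91%), of which 36 and 7 were coding, and in 7.19% of exonic windows. AAAATA had the largest deficit, with 18 (5.83%) against 63 (20.4%), beside 10.9% of exonic windows. The part of GC content in the weak peaks was not tested, and no control list was analysed.

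Position within the gene followed the class. A summit lay in an exon that is first in some transcript for 127 members (41.1%), where 16.7% of the exonic sequence outside promoters is of that kind. Most of this came from non-coding genes, 75 of 84 (89.3%) where such exons make up 70.8% of the sequence. Coding members were in first exons at 15.5% (sequence 12.2%, inside the interval of 10.6 to 22.2%). In 3' UTRs, 12 of 47 (25.5%, interval 15.3 to 39.5%) lay in an exon that is first in some transcript, against 7.65% of 3' UTR sequence, and by, CG7872 and Tctp were among them.

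Non-coding start sites lay near many of the members in non-coding exons. The promoter limit used protein-coding starts only, and 57 members (18.4%, interval 14.5 to 23.1%) lay within 500 bp of the start of another kind of gene, where 5.30% of the exonic sequence did. Of these, 53 were among the 84 in non-coding exons (63.1%, interval 52.4 to 72.6%), beside 48.9% of that sequence. The median distance from a summit in a non-coding exon to the nearest such start was 348 bp. The members nearest to the 500 bp limit were CG15247 at 501 bp with a signal of 163 and Strn-Mlck at 505 bp with 67.2. Just outside were an exon of lncRNA:CR44549 at 500 bp with 72.1 and one shared by asRNA:CR45827 and asRNA:CR45828 at 499 bp with 58.3.

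MicroRNA host genes held a group of members. Of 1945 lncRNA genes, 59 had a member, and 11 of these 59 also contain a microRNA, as do 34 of the 1945. The host of bantam (mir-ban), a growth-promoting microRNA, was lncRNA:CR43334, with 9 members along 15466 bp on 3L. They had low, even signals from 54.6 to 91.9. The conservative list held 5 of the 9, beside 54.7% of members and 74.7% of all arm peaks. The strongest of the 9 had 50.2 in replicate 1 and 43.3 in replicate 2. In neither replicate did 6 of the 9 pass the threshold, beside 49.5% of members and 22.3% of all arm peaks. A stronger summit of 113 that was not a member lay 477 bp upstream of the host start. The host of mir-277 and mir-34, lncRNA:CR43459 on 3R, had 3 members with signals of 108, 97.9 and 67.0, and the second of them lay 248 bp from mir-34.

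The other 9 hosts had 1 or 2 members each, at signals above and below those of the bantam host. lncRNA:CR43857, host of mir-275, had 64.6 in replicate 1 and 134 in replicate 2. lncRNA:CR43626, host of mir-282, had 178 (69.3 and 111), and lncRNA:CR31044, host of mir-279 and mir-996, had 118, past the threshold in replicate 2 with 83.2. lncRNA:CR43651, host of mir-14, had 2 members of 127 and 98.1, one past the threshold in each replicate. The other 5 had 1 member each: lncRNA:CR43650, host of mir-8, with 93.8, lncRNA:CR46006, host of mir-276a, with 91.5, lncRNA:iab4 with 85.1, lncRNA:CR43314 with 66.3 and lncRNA:iab8 with 56.6. The last 2 passed the threshold in neither replicate.

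Among small RNA genes, 5 of 32 snRNA genes held a member, beside 71 of all 4309 genes that make no protein (1.65%). All 5 were in the conservative list, which held 60 of the 84 members in non-coding exons and 74.7% of all arm peaks. U1, U2, U4 and U5 are RNAs of the spliceosome, and 7SK RNA holds the elongation factor P-TEFb inactive. The summit in snRNA:U1:95Ca had a signal of 158 (60.2 and 100 in replicates 1 and 2), snRNA:U4:39B had 114 (46.9 and 65.0) and snRNA:7SKa had 113 (47.0 and 64.9). In snRNA:U2:34ABb and snRNA:U5:63BC the signals were 99.5 and 94.8, past the threshold in replicate 2 alone at 67.3 and 59.9. Most of these genes have near-identical copies, and how reads that match several copies were placed is not stated in the labels or files, so the copy is uncertain. The same holds for tRNA:Leu-AAG-1-3, the 1 of 290 tRNA genes with a member, at 68.8.

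The members lay in 285 genes, 267 of them with 1 summit, where a summit assigned to more than 1 gene counted for each. Of 13968 protein-coding genes, 214 (1.53%) held a member. Among these 214, 89 (41.6%, interval 35.2 to 48.3%) also had a summit within 500 bp of a start site of their own, against 3262 of all 13968 (23.4%). Genes of some listed groups held members. In the calcium and calcineurin list, 3 of 12 genes did: NFAT, Cam and Itpr, the inositol trisphosphate receptor, whose 5' UTR summit had a signal of 63.1. The Itpr summit passed the threshold in neither replicate, and that of Cam in replicate 2 alone. Only that of NFAT, the gene that the strain's insertion targets, passed it in both. Of 10 muscle structural genes, 3 did, all at low signal: sls, a titin-like protein, with 63.8, Tm1, a tropomyosin, with 64.9, and the muscle actin Act57B with 76.1 and 51.9.

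The other lists had 0 to 2 such genes. The ribosomal protein and translation factor list had 2 of 136, RpL8 with 70.9 and RpS26 with 71.4. The cuticle list had 1 of 72, Cpr67B with 61.2 and 59.5, the Polycomb and trithorax list 1 of 10, ph-p, and the zinc finger and bHLH pattern genes 1 of 10, hry, the repressor Hairy, whose coding summit had 57.3 and passed the threshold in neither replicate. The lists of homeobox selectors (14 genes), Notch pathway (9), heat shock (13), axon guidance (13) and cell cycle (9) genes had none. With so few genes a list, intervals were wide, up to 53.2% for the calcium list and 60.3% for the muscle list.

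Member summits were spaced much like other peaks. Another summit of the list lay within 1000 bp of 75 members (24.3%, interval 19.8 to 29.3%), against 26.0% of all arm peaks. By class this was 36.7% in 5' UTRs, 33.3% in non-coding exons, 22.3% in coding sequence and 6.38% in 3' UTRs (interval 2.19 to 17.2%). A set of 8 members had signals under 20 and lay 199 to 233 bp from a stronger summit, with intervals that overlapped it. In 7 of the 8 that neighbour was itself a member, in ana2, lncRNA:CR44739, lncRNA:CR44380, PolI, CG11964, dbf and CG15695, so these genes count a pair of summits for a single stretch of enrichment.

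The CACTG core was found within 50 bp of 88 member summits (28.5%, interval 23.7 to 33.8%), in 42 windows 400 bp away (13.6%, interval 10.2 to 17.9%) and in 19.5% of consecutive windows over exonic sequence outside promoters. All arm peaks had it at 30.0%. The share was alike in the 4 classes, at 26.7% in 5' UTRs, 28.4% in coding sequence, 31.9% in 3' UTRs and 27.4% in non-coding exons. In 3' UTRs it stood beside 10.9% of that sequence, below the interval of 20.4 to 46.2%, and in coding sequence beside 22.6%, inside the interval of 21.7 to 36.1%. Matches numbered 3.49 per kb within 50 bp of member summits, 3.56 from 51 to 100 bp and 2.10 from 251 to 300 bp. The matches printed above lie 1 bp from the summit in by, 2 in Tctp, 3 in ph-p, 34 in lncRNA:CR44619 and 45 in lncRNA:CR44363.

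The NFAT core GGAAA was not more frequent at member summits than around them. It lay in 66 windows (21.4%, interval 17.2 to 26.3%), in 75 flanks (24.3%) and in 22.8% of exonic windows, beside 26.4% of all arm peaks. In the strongest quartile of members it lay at 25 of 77 summits (32.5%, interval 23.1 to 43.5%) and in 16 flanks (20.8%, interval 13.2 to 31.1%), which overlap. The longer site TGGAAA, which contains that core, lay at 24 summits (7.77%) and in 32 flanks (10.4%), beside 11.1% of all arm peaks.

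The CTCF-like core AGGTGGCGC lay at 6 summits (1.94%, interval 0.893 to 4.17%) and in 0 flanks (upper bound 1.23%), where 0.122% of exonic windows and 0.959% of all arm peaks had it. Among the other peaks outside promoters, intergenic peaks had it at 2.57% (interval 1.54 to 4.27%) and intronic peaks at 0.773% (interval 0.421 to 1.42%), and both intervals overlapped that of the members. The wider form AGNTGGCGC, which contains it and was chosen after seeing the data, lay at 10 summits (3.24%, interval 1.77 to 5.85%) and in 1 flank, beside 0.459% of exonic windows and 2.20% of all arm peaks. Intergenic peaks had the wider form at 6.43% (interval 4.66 to 8.82%) and intronic peaks at 1.78% (interval 1.19 to 2.66%). The 10 were otp, Mef2, klar, Pde1c, ush, Cam, Hph, CG9166, Itpr and Hr4. They include 6 of the 77 strongest members, with the homeobox gene otp at 690 and Mef2 at 458. Of the 10, 5 overlapped both replicates, beside 17.8% of members and 39.8% of all arm peaks. All 37 members in the strongest quartile of arm peaks did so. The 4 strongest of the 10 were in coding sequence or a 5' UTR, and none of the 10 was in a non-coding exon. The printed core lay on the summit base in Pde1c and 5 bp from it in ush, which encodes a zinc finger cofactor of GATA factors. It lay 7 bp away in CG9166, 14 in Hr4, 16 in Hph and in Itpr, and 41 in klar.

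Motifs known from promoters were rare among members, as they were among other peaks outside promoters. The DRE motif TATCGATA lay at 1 summit (0.324%, interval 0.0572 to 1.81%), against 3.25% of all arm peaks and 5.59% of promoter peaks, and the M1BP element GGTCACACT at 1 (0.324%), against 1.31% of all and 2.18% of promoter peaks. Intronic and intergenic peaks had the DRE at 0.0773% and 0.551% and the M1BP element at 0.155% and 0.184%. The BEAF-32 core CGATA, which the DRE contains, lay at 30 summits (9.71%, interval 6.89 to 13.5%) and in 39 flanks, against 20.7% of all arm peaks, 11.1% of intronic and 11.8% of intergenic peaks. The E-box CAGCTG lay at 27 summits (8.74%, interval 6.07 to 12.4%) and in 10 flanks (3.24%). All arm peaks had it at 6.35% and exonic windows at 6.09%, both inside the interval. Of these 27, 19 were in coding sequence (12.8%, interval 8.37 to 19.2%), where 7.58% of windows have it.

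The GAGA motif GAGAG lay at 50 summits (16.2%) and in 31 flanks, with overlapping intervals, against 14.1% of all arm peaks. The TATA box TATAAA lay at 14 summits (4.53%, interval 2.72 to 7.46%) and in 30 flanks (9.71%), against 11.6% of all arm peaks. In exonic windows it stood at 7.22%, inside that interval. It lay at 0 of 148 coding summits (upper bound 2.53%), where only 2.69% of coding windows have it. The splice donor GTAAGT lay at 5 summits (1.62%), against 3.53%. Shares were near the background for the E-box CACGTG at 3 summits (0.971% against 1.12%), AP-1 TGANTCA at 8 (2.59% against 1.98%) and Zelda CAGGTA at 8 (2.59% against 1.84%). A match is a description of these letters and not evidence of a bound factor.

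**Figure D5:**
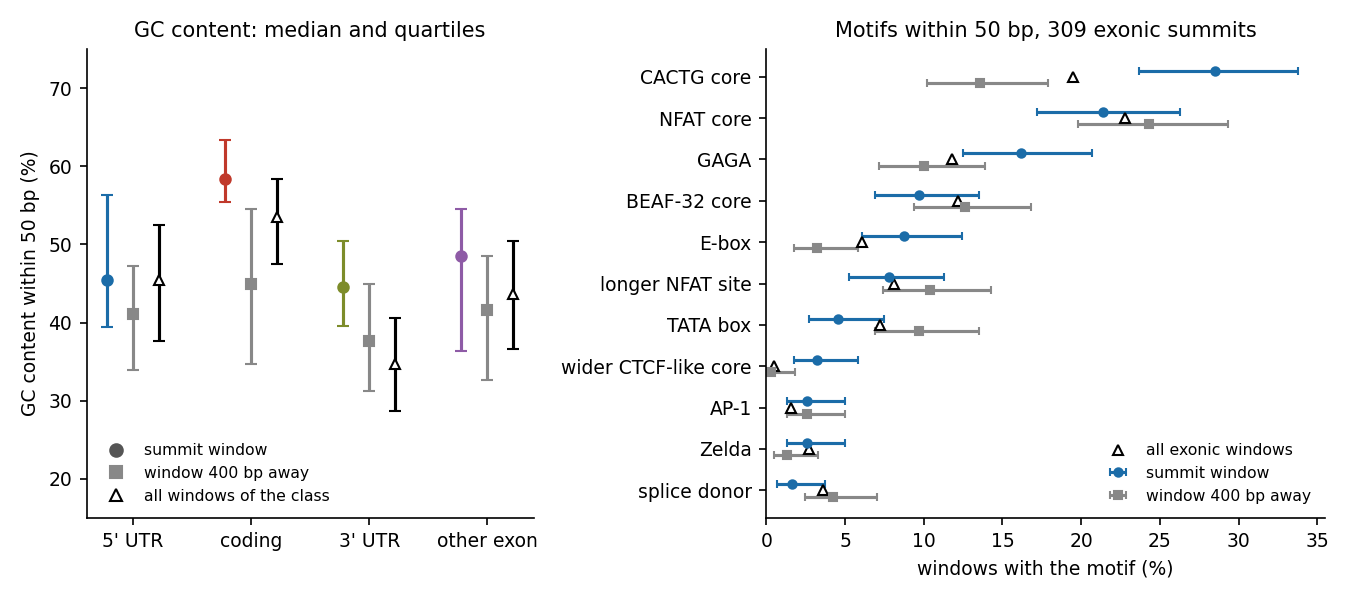
Left, GC content in percent within 50 bp of the summit, 400 bp away and over all sequence of the class, as medians with quartiles, by class ("other exon" as in non-coding genes). Right, share of windows in percent with each motif at the 309 summits, 400 bp away (both with Wilson 95% intervals) and in all exonic windows outside promoters; coding summits reach a median GC of 58.4%, and CACTG stands at 28.5% against 13.6% in flanks.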

How the data were processed

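The data were narrowPeak lists on dm6, per the labels: for each replicate, and for both together, a ranked list and one thresholded by the irreproducible discovery rate (IDR), and a conservative joint list. Neither labels nor files name the aligner or peak caller. The deposited lists hold a signal per peak, on a scale not given, the −log10 of a q-value, and a summit offset, and the authors' ranked lists add the −log10 of a global IDR. The joint thresholded list had 4924 peaks, of which 25 off the arms were left out. Exons and start sites came from Ensembl release 115 (BDGP 6.54), without transposable elements. Flanks lay 400 bp left or right, alternating by rank. Of the symbols listed one by one, 100 matched directly, 2 through synonyms and 1 had no match. The gene names given follow a rule: the 15 strongest members, the 4 strongest of each class, genes with at least 3 members, members of 11 gene lists, and NFAT. Other genes (microRNA hosts, snRNAs, tRNA, side peaks, carriers of the wider CTCF-like core) were named after their values were seen. Members, lists and motifs were chosen with earlier results of these data known. The 2 replicates form 1 group, so shares with intervals are given in place of tests. Alternatives planned numbered 95, of which 1 was not run. After seeing the data 10 were added: 8 without weak side peaks, the signal quartiles and the wider CTCF-like core. Steps were tested on simulated data. Python 3.11.15, NumPy 2.4.6, pandas 2.3.3, SciPy 1.17.1 and matplotlib 3.10.9 were used.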

Additional observations from a re-analysis of the deposited data

How the results depend on the processing

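The values rest on weak peaks in 1 list, with no control list analysed and no known depth, and peaks of 2 libraries are not independent. Of 102 alternative values (94 planned, and 8 added without peaks of signal under 20), 62 stayed within the 95% interval of the reported value and 40 moved outside it, and the cause was not tested. "Every start site" was not run for the share near non-coding starts, which it removes.

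The share of arm summits that were exonic and outside promoters (6.31%) became 5.04% in the conservative list, 7.94% and 4.53% with promoter limits of 250 and 1000 bp, 5.14% with start sites of every gene, 4.59% with exons of protein-coding genes alone and 2.98% among peaks at or above the median signal. With 1 replicate's list left out it was 3.53 to 4.31%.

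The coding share (47.9%) became 57.9% with every start site, 65.8% with protein-coding exons, 13.7% among the stronger peaks and 25.3 to 29.7% with a replicate left out. The share in both replicates (17.8%) became 27.4% in the conservative list, 11.6% with protein-coding exons, 72.6% among the stronger peaks, 93.5% with ranked lists and 33.1 to 65.8% with a replicate left out, where one of its 2 lists is itself the source.

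The share near non-coding starts (18.4%) became 1.78% with protein-coding exons, 34.2% among the stronger peaks and 26.7 to 27.8% with a replicate left out. The first-exon share (41.1%) became 46.8% at 250 bp, 29.0% with every start site, 21.3% with protein-coding exons, 65.8% among the stronger peaks and 54.7 to 58.2% with a replicate left out. The median signal (68.2) became 72.7 in the conservative list, 65.2 with protein-coding exons, 147 among the stronger peaks and 54.3 to 59.9 in the replicates' own lists.

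The CACTG share (28.5%) changed with the window, to 47.9% within 100 bp and 13.6% within 25 bp, and was 26.6 to 29.7% with a replicate left out. The GGAAA share (21.4%) became 32.9% among the stronger peaks, 40.8% and 9.39% in those windows, and 21.5 to 27.3% with a replicate left out. Leaving out peaks of signal under 20 moved none of the 8 values. No paired analysis was possible because the 2 replicates form 1 group.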
